A study of Mus musculus with 8 samples.

Results

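The guanylin pathway controls how much chloride and water the intestinal epithelium secretes, and 5 of its genes were followed here out of 40178 genes listed in either of the deposited count tables. They are Guca2a (guanylin), Guca2b (uroguanylin), Gucy2c (guanylate cyclase C), Prkg2 (cGMP-dependent protein kinase II) and Cftr (the apical chloride channel). They were chosen by name, at a time when differences between the genotypes in these libraries were known, so genotype differences of the 5 genes are given as a description with no test. The difference between ileum and colon was not used in choosing them and was tested.

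RNA was sequenced from intestinal epithelial cells released with EDTA from the colon and the ileum of 4 mice aged 8 weeks, which gave 8 libraries in 4 groups of 2. The WT mice were DDX5(+/+), Vil1Cre(+) and the KO mice DDX5(fl/fl), Vil1Cre(+), so both genotypes carried the Cre recombinase, which the Villin promoter drives in the gut epithelium and not in immune or stromal cells. The study compared cohoused littermates without treatment and asked which epithelial RNAs depend on the RNA helicase DDX5. By the mouse numbers that the study gives, each mouse yielded a colon and an ileum library, which share a replicate number. Gene counts in WT colon added up to 17385217 and 20393824 for replicates 1 and 2, and those in KO colon to 16883951 and 19437275. WT ileum reached 22984283 and 14878989, and KO ileum 11768205 and 11571061. CPM here means counts relative to library size, with TMM factors taken over the 8 libraries.

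Some libraries stood apart from the others of their tissue. In the KO colon library of replicate 1, 18 of 11973 genes were at least 4-fold below each of the other 3 colon libraries and 3 were at least 4-fold above, on the scale of CPM plus 1. In the other colon libraries, at most 1 gene was lower and at most 7 were higher by that measure. In the ileum, 12 genes were lower and 2 higher in KO replicate 1, and 1 was lower and 12 higher in KO replicate 2. In KO ileum replicate 2, 3 repeat-like genes (Gm10800, Gm10801 and Gm21738) took 19.5% of the counts (95% Wilson interval 19.47 to 19.51, counting error only), against 0.226% in KO ileum replicate 1 and 4.05% and 3.93% in WT ileum. Some results below are therefore also given without KO colon replicate 1 or without KO ileum replicate 2, from a fit of the 4 groups over the 7 libraries left, which has no replicate block.

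The tissue labels matched their markers. Fabp6, the ileal bile acid binding protein, lay between 892 and 2145 CPM in the ileum libraries and between 1.26 and 3.56 CPM in the colon libraries. Car1, a carbonic anhydrase of colonocytes, lay between 1702 and 2962 CPM in the colon and between 0.321 and 4.15 CPM in the ileum. The 6 epithelial markers, led by Krt8, summed to between 8371 and 9498 CPM in the colon and between 11430 and 15300 CPM in the ileum.

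Guanylin and uroguanylin are small peptides that epithelial cells secrete into the gut lumen, where they bind guanylate cyclase C on the apical membrane. The receptor then makes cGMP inside the cell, cGMP activates the kinase that Prkg2 encodes, and the kinase phosphorylates CFTR, which opens and lets chloride leave, with water following. The same pathway restrains sodium uptake through the exchanger NHE3, and bacterial heat-stable enterotoxins cause secretory diarrhoea by binding the same receptor.

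The peptide genes are neighbours. Guca2a (ENSMUSG00000023247.2) lies at chr4:119637704-119639471 on the plus strand and Guca2b (ENSMUSG00000032978.14) at chr4:119656607-119658954 on the minus strand of GRCm38, 17135 bases apart, with no gene annotated between them. Both have 3 exons, and the active peptide is the end of the last one's coding sequence. The last 15 codons of each are shown because they carry the part that meets the receptor, and the capitals mark the cysteine codons, which form the peptides' disulphide bridges. The Guca2a stretch is chr4:119639228-119639272 on the plus strand and the Guca2b stretch chr4:119656795-119656839 on the minus strand.
Guca2a: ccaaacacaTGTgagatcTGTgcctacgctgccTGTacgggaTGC
Guca2b: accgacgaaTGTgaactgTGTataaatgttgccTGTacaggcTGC
All 4 cysteine codons stood at the same places, codons 4, 7, 12 and 15 of the stretch. Over the 45 bases, 29 were the same in both genes (64.4%), and 5 of the 15 codons were identical. No 50-base word of any of the 5 genes occurred unchanged in an annotated transcript of another gene. Copies that differ by a base within each word, or that lie outside annotated transcripts, were not searched for. A RefSeq long noncoding RNA, Gm35761, overlaps Guca2b by 670 bases and is not listed in the deposited tables. Whether the counting used strand is not stated, so reads from it and from Guca2b cannot be told apart.

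Ddx5, the gene deleted in the epithelium, was lower in each KO library. In the colon it stood at 771 and 706 CPM in WT and at 367 and 355 CPM in KO, and in the ileum at 700 and 700 CPM in WT and at 340 and 326 CPM in KO. No KO library reached a WT library. The log2 difference was −1.04 in the colon (SE 0.09) and −1.07 in the ileum (SE 0.18), with Benjamini-Hochberg adjusted p-values of 0.0866 and 0.0270 by edgeR's quasi-likelihood test. Of the 50-base words of Ddx5, 14.6% also occur in other genes, so its level is less certain than those of the 5 genes.

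Guca2b RNA was more than 10-fold higher in the ileum than in the colon. It stood at 7.46 and 6.87 CPM in WT colon, 7.62 and 9.43 in KO colon, 110 and 106 in WT ileum, and 201 and 148 in KO ileum. Each ileum library lay far above each colon library, and the colon values rested on 138 to 207 reads. The log2 difference between ileum and colon was 3.91 in WT (SE 0.18, 15.1-fold, adjusted p = 3.95e-06 by edgeR's quasi-likelihood test) and 4.35 in KO (SE 0.19, 20.4-fold, adjusted p = 3.04e-06 from the same test). It was higher in the ileum in 4 of 4 mice, and the call held without any one library. Of all 16178 genes tested, 34.2% were called between the tissues in WT and 35.3% in KO at an adjusted p under 0.05. In these bulk samples, fewer cells of a type and less RNA per cell cannot be told apart.

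Guca2a RNA was abundant in both tissues. Its level was 586 and 606 CPM in WT colon, 438 and 586 in KO colon, 401 and 429 in WT ileum, and 437 and 388 in KO ileum. WT colon lay above WT ileum in both mice, whereas KO colon replicate 1 was level with the ileum. The log2 difference between ileum and colon was −0.52 in WT (SE 0.16, adjusted p = 0.0364 by edgeR's quasi-likelihood test) and −0.31 in KO (SE 0.16, adjusted p = 0.170). The WT call was lost without any one of the 4 WT libraries, with adjusted p-values from 0.121 to 0.172. The KO difference was −0.51 without KO colon replicate 1 and −0.09 without KO colon replicate 2. It was −0.41 without KO ileum replicate 1 and −0.21 without KO ileum replicate 2.

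The peptides' shares therefore differed between the tissues, as a ratio within each library shows without any scaling. Per kilobase of exon, Guca2b made up 0.861% and 0.768% of both peptide RNAs in WT colon and 1.17% and 1.09% in KO colon. In the ileum its share was 15.8% and 14.4% in WT and 24.0% and 20.7% in KO. Guca2a was thus the more abundant peptide RNA in each library, 115-fold and 129-fold in WT colon and 3.18-fold and 3.83-fold in KO ileum. In both tissues each KO library lay above both WT libraries in the Guca2b share. An exact permutation test of 2 against 2 libraries cannot give a two-sided p below 0.333, and none was computed.

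**Figure D1:**
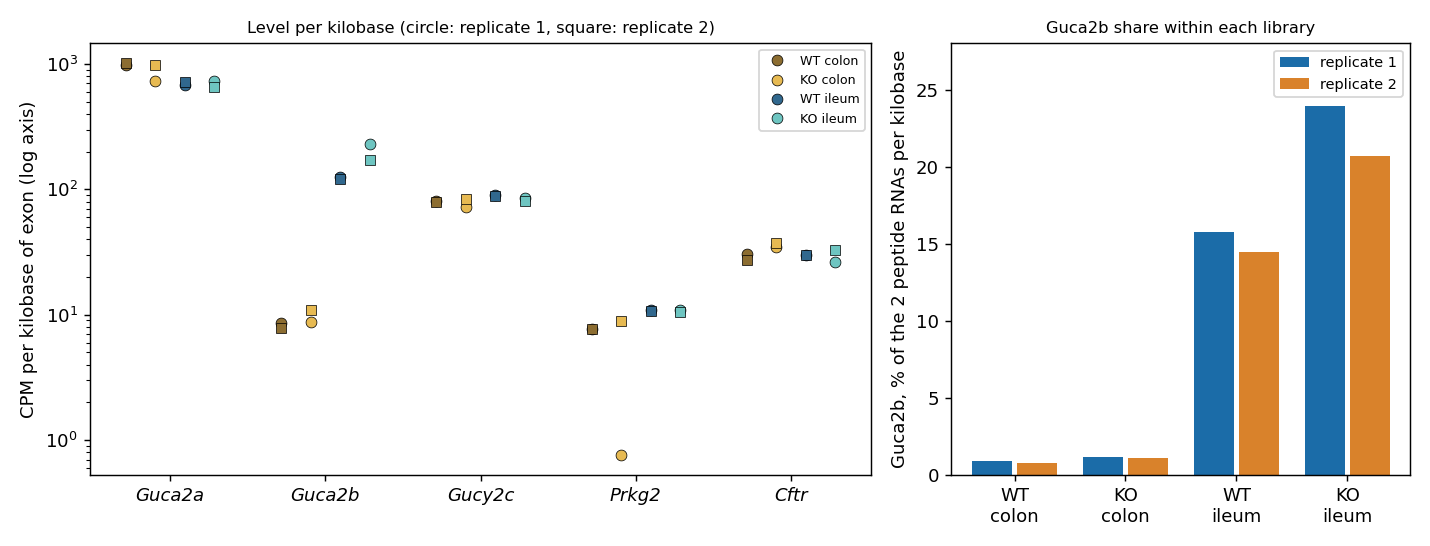
Left, level of the 5 genes in each library in CPM per kilobase of exon on a log axis, coloured by group, circles for replicate 1 and squares for replicate 2. Right, Guca2b as a percentage of the Guca2a and Guca2b RNA per kilobase in each library, from 0.768% in WT colon to 24.0% in KO ileum.

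Between the genotypes, the peptide genes differed mainly through Guca2b in the ileum. There both KO libraries lay above both WT libraries, by 0.68 on the log2 scale (SE 0.15, 95% interval 0.36 to 1.01). The difference was 0.92 without KO ileum replicate 2 and 0.45 without KO ileum replicate 1. In the colon, Guca2b differed by 0.24 (SE 0.20, 95% interval −0.27 to 0.75), by 0.40 without KO colon replicate 1 and by 0.088 without KO colon replicate 2. Guca2a differed by −0.24 in the colon (SE 0.12, 95% interval −0.55 to 0.06), by −0.03 without KO colon replicate 1 and by −0.45 without KO colon replicate 2. In the ileum, Guca2a differed by −0.01 (SE 0.17, 95% interval −0.38 to 0.37), by 0.09 without KO ileum replicate 2 and by −0.10 without KO ileum replicate 1. Across all genes, the study's criterion, a log2 fold change of at least 0.5 either way and an unadjusted p under 0.05, called 6.71% of genes for the colon and 7.35% for the ileum. It rests on unadjusted p-values: at an adjusted p under 0.05 by edgeR's quasi-likelihood test, 0 of 15362 colon genes and 98 of 14068 ileum genes passed. In the colon, 1836 genes had an unadjusted p under 0.05, and DESeq2 called 530 by the study's criterion. The 5 genes were not put through that criterion, and the intervals of their genotype differences do not allow for how they were chosen.

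Cell type markers moved between the genotypes beside these values. The 5 enteroendocrine markers, led by Chgb, summed to 46.8 and 46.4 CPM in WT ileum and to 84.6 and 69.5 CPM in KO ileum, with 2 of 5 called higher by edgeR and by DESeq2 (Chga and Chgb by edgeR), beside 3.87% of all genes called higher in the ileum by edgeR. Tph1 and Tac1 were higher in both KO libraries and were not called by edgeR, and Neurod1 went both ways between the replicates. The 7 goblet markers, led by Fcgbp, summed to 26750 and 22920 CPM in WT ileum and to 31980 and 27760 CPM in KO ileum, with 2 of 7 called higher by edgeR (Tff3 and Zg16) and 1 called by DESeq2, beside the same 3.87%. Agr2 was lower in both KO libraries, at 689 and 694 CPM in WT and 608 and 654 CPM in KO. Muc2 (7936 and 7149 in WT, 7154 and 9766 in KO) and Clca1 went both ways between the replicates. Fcgbp and Spdef were higher in KO within each replicate number and were not called. Alpi was called higher by edgeR and no gene by DESeq2 among the 6 absorptive enterocyte markers, led by Apob, which summed to 10560 and 13340 CPM in WT ileum and to 13290 and 9648 CPM in KO ileum. Sis was lower in both KO libraries, at 2922 and 4000 CPM in WT and 2903 and 2377 CPM in KO. Apob, Apoa1, Apoa4 and Mttp went both ways between the replicates. None of these marker genes was at 0 in an ileum library. The part of cell composition in the Guca2b difference was not tested.

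The promoters of the peptide genes were read from RefSeq (GRCm38.p6), since the genes lie side by side and differ in their pattern. Of the 5 genes, 3 had a window in the set of promoters used here: Guca2a, Guca2b and Cftr. The 250 bases before the RefSeq start of Guca2a (chr4:119637482-119637731, plus strand) and of Guca2b (chr4:119658946-119659195, minus strand) are given, with a match to GTTAAT in capitals. The RefSeq starts lie inside the genes as GENCODE places them, so the windows cover the first 28 bases of Guca2a and the first 9 bases of Guca2b given above.
Guca2a: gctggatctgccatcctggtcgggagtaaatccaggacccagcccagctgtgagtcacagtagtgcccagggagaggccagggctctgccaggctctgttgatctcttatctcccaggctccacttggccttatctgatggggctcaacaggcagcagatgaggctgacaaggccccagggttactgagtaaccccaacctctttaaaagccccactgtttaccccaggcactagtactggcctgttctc
Guca2b: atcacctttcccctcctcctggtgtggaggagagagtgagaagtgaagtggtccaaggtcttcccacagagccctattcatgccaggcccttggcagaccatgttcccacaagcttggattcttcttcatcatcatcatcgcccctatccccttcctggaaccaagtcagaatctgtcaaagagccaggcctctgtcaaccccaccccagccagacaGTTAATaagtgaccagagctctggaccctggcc
Both strands were searched for TTTAT (CDX), GTTAAT (the core of an HNF1 site) and CAAAGT (the core of an HNF4 site), motifs of transcription factors of the intestinal epithelium. GTTAAT was found once in the Guca2b window, 33 bases before the RefSeq start, and none of the 3 motifs was found in the Guca2a or Cftr window. Of 32851 promoter windows of the same length, 37.3% held TTTAT, 6.43% GTTAAT and 12.6% CAAAGT. A match describes letters and is not a binding site.

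The protein-coding genes next to the pair had other patterns. Foxj3, a forkhead transcription factor gene 8584 bases before Guca2a, had mean levels of 41.5 CPM in WT and KO colon, 62.4 CPM in WT ileum and 64.2 CPM in KO ileum. Hivep3, a zinc finger protein gene 74829 bases beyond Guca2b, had means of 6.28, 3.64, 3.47 and 1.96 CPM in WT colon, KO colon, WT ileum and KO ileum. Neither showed the tissue step of Guca2b.

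Gucy2c, the receptor gene (ENSMUSG00000042638.14, chr6:136697284-136781765, minus strand), was near level in all 8 libraries. Its values were 317 and 315 CPM in WT colon, 287 and 329 in KO colon, 360 and 350 in WT ileum, and 339 and 321 in KO ileum. WT ileum lay above WT colon in both mice, and the KO groups overlapped. The log2 difference between ileum and colon was 0.17 in WT (95% interval −0.11 to 0.44, adjusted p = 0.324 by edgeR's quasi-likelihood test) and 0.10 in KO (95% interval −0.17 to 0.37, adjusted p = 0.554). The genotype difference was −0.05 in the colon (95% interval −0.29 to 0.19) and −0.10 in the ileum (95% interval −0.45 to 0.25). Without KO colon replicate 1, the colon genotype difference turned to 0.056 and the KO difference between the tissues to −0.0041. With unscaled totals, which shift the median of all genes by −0.19 between the tissues in WT and by −0.33 in KO, the mean per kilobase was 88.2 in WT colon and 85.6 in WT ileum, so the order of the tissues turned. Per kilobase and library, the RNA of both peptides together was 12.4 and 12.9 times that of Gucy2c in WT colon, 10.3 and 11.99 in KO colon, 8.82 and 9.55 in WT ileum, and 11.3 and 10.2 in KO ileum.

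**Figure D2:**
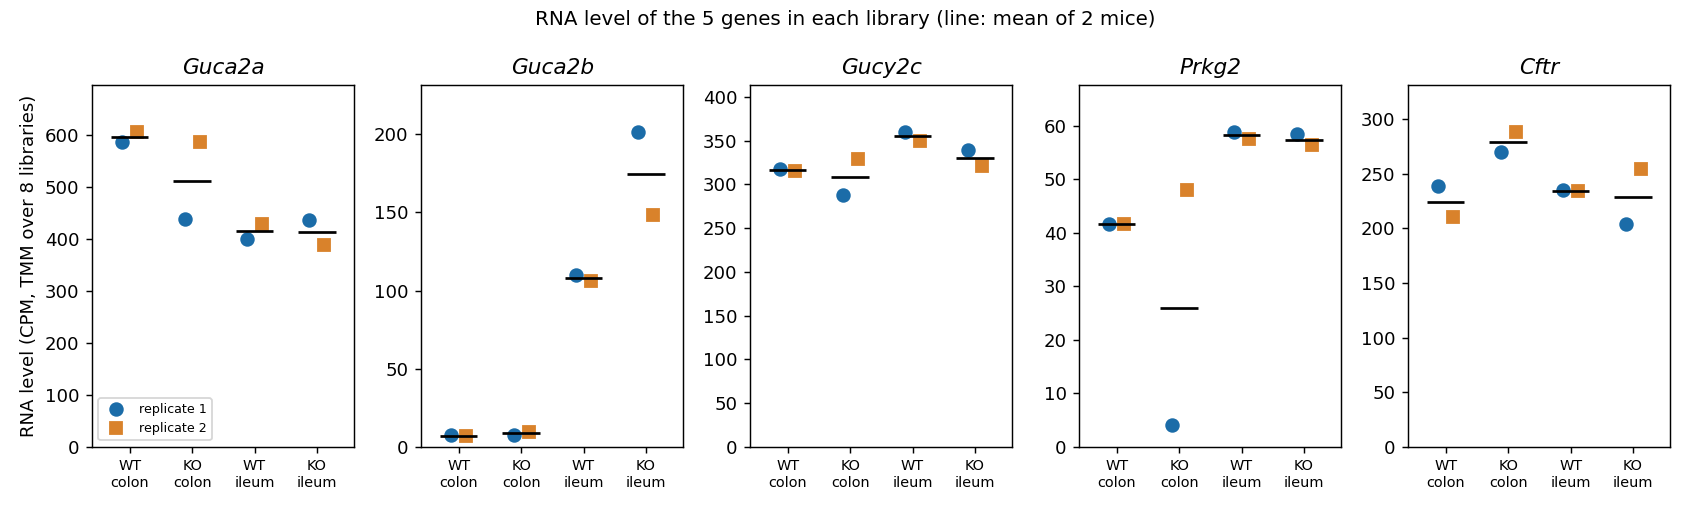
Level of each of the 5 genes in CPM in the 8 libraries, circles for replicate 1, squares for replicate 2 and a line for the mean of 2 mice. Guca2b steps up from at most 9.43 CPM in the colon to at least 106 CPM in the ileum, and Prkg2 is at 4.08 CPM in KO colon replicate 1 and at 41.6 CPM or more in the other 7 libraries.

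Prkg2, the gene of the kinase that cGMP activates (ENSMUSG00000029334.14, chr5:98929773-99037351, minus strand), was low in a single library. It stood at 41.7 and 41.6 CPM in WT colon, 58.8 and 57.6 in WT ileum, and 58.4 and 56.3 in KO ileum. In KO colon, replicate 1 had 4.08 CPM (74 reads) and replicate 2 had 47.9 CPM (1051 reads). Replicate 1 was 10.7-fold below the mean of the other 3 colon libraries, 43.7 ± 3.64 CPM (SD, n = 3), while replicate 2 lay above both WT libraries. The ileum library of the same KO mouse, at 58.4 CPM, was not low. The genotype difference in the colon was −1.34 on the log2 scale (SE 0.85, 95% interval −3.54 to 0.86) with both KO mice and the replicate block. It was −0.68 without the block (SE 0.88) and −0.67 in a single fit of all 8 libraries (SE 0.75), while the replicates of the colon showed no pairing (correlation 0.001). In fits of that last form, it was 0.20 without replicate 1 and −3.35 without replicate 2. In the ileum it was −0.02 (SE 0.13, 95% interval −0.31 to 0.28).

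The test between the tissues depended on the spread between the KO colon libraries. The log2 difference of Prkg2 between ileum and colon was 0.48 in WT, where both ileum libraries lay above both colon libraries (SE 0.74, adjusted p = 0.660 by edgeR's quasi-likelihood test, which pools the spread over the 4 groups). Without KO colon replicate 1, the WT difference was 0.48 with an adjusted p of 0.00885, and without KO colon replicate 2 it was 0.48 with an adjusted p of 0.00957. In KO the difference was 1.13 (SE 0.76, adjusted p = 0.284 from the same test), 0.25 without replicate 1 and 3.81 without replicate 2, where the lone KO colon library is assumed to vary like the other groups.

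KO colon replicate 1 differed in other genes as well, which were chosen after their values were seen. Ranked by the gap to the nearest other colon library, Prkg2 was the 6th of the lower genes, after Reg3b, Osr2, Cubn, Slc51a and Pla2g4c. Cubn, an endocytic receptor for intrinsic factor and vitamin B12, stood at 0.166 CPM there and at 9.56, 9.99 and 15.3 CPM in the other colon libraries. Slc51a, a bile acid exporter subunit, stood at 1.27 CPM against 18.2, 22.2 and 20.2 CPM, and the bile acid importer gene Slc10a2 at 9.27 CPM against 39.9, 39.0 and 65.5 CPM. Cubn and Slc51a both stood at 290.7 CPM or more in each ileum library. The genes that were at least 4-fold higher were Dbp, Scnn1g and Tef. Dbp and Tef, transcription factors of the daily clock, were also raised in the ileum of the same mouse, Dbp to 23.9 CPM against at most 4.38 CPM in the other ileum libraries, whereas Prkg2 was not low there.

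Hox genes, whose order on the chromosome mirrors where along the body and the gut they are active, also set this library apart. Among the 8 Hoxb genes with a mean of at least 0.5 CPM in the colon, 6 (Hoxb3 to Hoxb8) were lowest in KO colon replicate 1, such as Hoxb6 at 2.15 CPM against 15.8 to 17.5 CPM. Hoxb13, at the other end of the cluster, was highest there, at 281.7 CPM against 194.5, 159.1 and 165.4 CPM. Of 6 Hoxd genes, 5 were highest there, such as Hoxd13 at 68.8 CPM against 18.9, 19.6 and 21.7 CPM, and Hoxd8 was lowest. Of 10 Hoxa genes, 6 were highest there, among them Hoxa13 at 68.4 CPM against 46.5, 39.5 and 48.8 CPM, and Hoxa11, next to Hoxa13, was lowest at 1.82 CPM against 3.05 to 3.52 CPM. The labels do not say which stretch of the colon each library came from, and its part in the Prkg2 value was not tested.

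**Figure D3:**
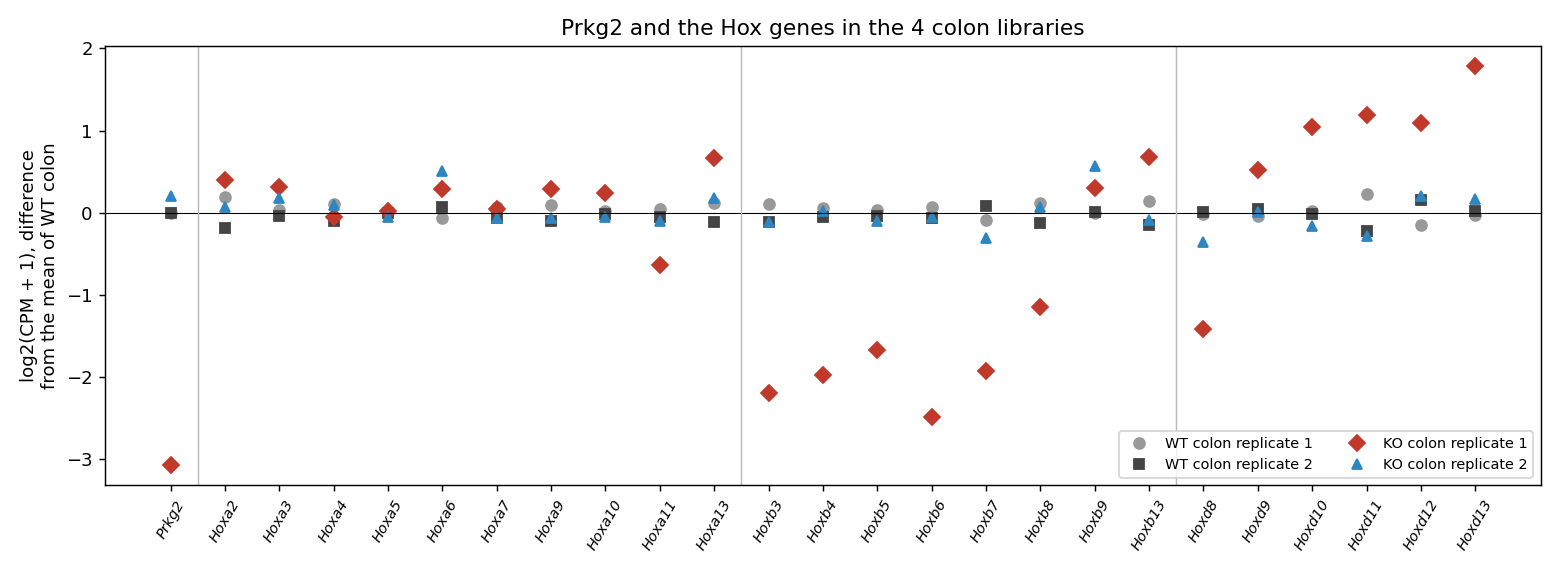
Prkg2 and the Hoxa, Hoxb and Hoxd genes with a mean of at least 0.5 CPM in the colon, as the difference of log2(CPM + 1) from the mean of the WT colon libraries, 1 symbol per colon library. KO colon replicate 1 lies low for Prkg2 and Hoxb3 to Hoxb8 and high for Hoxa13, Hoxb13 and Hoxd13.

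Cftr, the channel gene at the end of the pathway (ENSMUSG00000041301.15, chr6:18170687-18322768, plus strand), was expressed in all 4 groups. It stood at 239 and 210 CPM in WT colon, 270 and 288 in KO colon, 235 and 234 in WT ileum, and 204 and 254 in KO ileum. Both KO colon libraries lay above both WT colon libraries, and the ileum groups overlapped. As a description, the genotype difference was 0.30 on the log2 scale in the colon (SE 0.10, 95% interval 0.04 to 0.57) and −0.04 in the ileum (SE 0.15, 95% interval −0.37 to 0.29). Without KO colon replicate 1, the colon difference was 0.36. The ileum difference turned direction with the library left out, at −0.18 without KO ileum replicate 2 and 0.11 without KO ileum replicate 1. The log2 difference between ileum and colon was 0.06 in WT (SE 0.14, adjusted p = 0.768 by edgeR's quasi-likelihood test) and −0.29 in KO (SE 0.14, adjusted p = 0.140). The KO difference was −0.43 without KO ileum replicate 2 and −0.14 without KO ileum replicate 1. The WT difference turned to −0.03 without WT colon replicate 2.

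**Figure D4:**
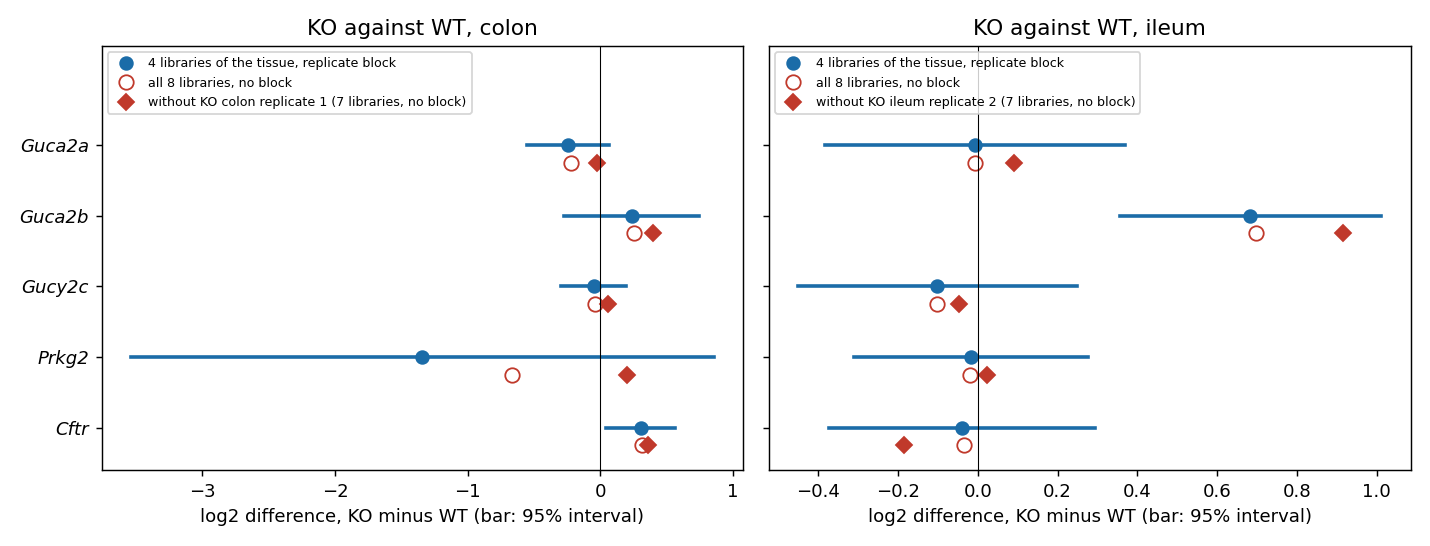
Log2 difference of KO and WT for the 5 genes in the colon and the ileum. Blue marks the fit of the 4 libraries of the tissue with the replicate block and 95% intervals. Open red circles mark a single fit of all 8 libraries without the block. Red diamonds mark that fit without KO colon replicate 1 in the colon and without KO ileum replicate 2 in the ileum. Guca2b in the ileum was at 0.92 without KO ileum replicate 2 and at 0.45 without KO ileum replicate 1. Prkg2 in the colon is at −1.34 with the block, −0.67 without it over 8 libraries, and 0.20 without KO colon replicate 1.

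Set side by side per kilobase of exon, the order of the 5 genes differed between the tissues in the place of Guca2b. In WT colon the means were 1003 CPM per kilobase for Guca2a, 79.9 for Gucy2c, 28.9 for Cftr, 8.23 for Guca2b and 7.75 for Prkg2. The Guca2b libraries there, at 8.57 and 7.89, lay only slightly above those of Prkg2, at 7.76 and 7.74. With 142 and 156 Guca2b reads in them, the order of these 2 genes is not settled. In KO colon the order was the same, at 862, 77.9, 35.9, 9.80 and 4.84, and Guca2b and Prkg2 overlapped. In WT ileum Guca2b, at 124, stood between Guca2a at 698 and Gucy2c at 89.6, followed by Cftr at 30.2 and Prkg2 at 10.8. In KO ileum the means in the same order were 694, 201, 83.4, 29.5 and 10.7. In both ileum groups each gene's libraries lay apart from those of its neighbours in the order.

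The rest of the pathway was followed in 6 gene lists, with calls between the genotypes by the study's criterion and between the tissues at an adjusted p under 0.05. The lists, like the 5 genes, were chosen with earlier results of these data known. Their genotype calls are therefore a description, and the share of all genes beside them is no test of the lists. Genes that make, break down or export cGMP besides the 5 passed the filter on low counts for 8 of 14. Between the genotypes in the colon, 0 of 8 were called by edgeR, 0 had an unadjusted p under 0.05 and 0 were called by DESeq2, beside 6.71% of all genes called by edgeR. In the ileum, 2 of 8 were called, beside 7.35% of all genes: Pde10a was higher (1.53, SE 0.62) and Abcc4, a cGMP and cAMP exporter gene, lower (−0.61, SE 0.23), and DESeq2 called neither. Pde10a was at 1.61 CPM or less in each library. It stood at 0.600 and 0.208 CPM in WT ileum and at 0.937 and 1.61 CPM in KO ileum. A gene this close to the filter on low counts can pass it through the group where it is high. The Pde10a call therefore supports no conclusion. Neither call held without either KO or either WT ileum library. The median log2 difference of the list was 0.05 in the colon and −0.09 in the ileum, beside medians of −0.00 over all genes in both tissues.

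Between the tissues, 4 of 8 genes of this list were called in each genotype, 1 higher and 3 lower in the ileum, beside 34.2% of all genes in WT and 35.3% in KO. Pde5a, a phosphodiesterase that breaks down cGMP, was higher in the ileum by 1.20 in WT (SE 0.13) and 1.14 in KO (SE 0.14), from means of 133 and 134 CPM in WT and KO colon to 307 and 296 CPM in the ileum. Abcc4 was lower in the ileum, by −1.24 in WT (SE 0.22) and −2.28 in KO (SE 0.24). Pde3a and Pde9a were the other genes of the list with high levels, at 135 and 108 CPM in WT colon and 98.5 and 140 CPM in WT ileum. Pde2a was called lower in WT ileum (−1.09, SE 0.33), a call that DESeq2 did not make and that was lost without any one WT library, and Pde3a in KO ileum (−0.84, SE 0.16).

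The cAMP branch, which opens CFTR through protein kinase A, had no gene called between the genotypes by edgeR or DESeq2, 0 of 13 for colon and 0 of 12 for ileum, beside 6.71% and 7.35% of all genes. Unadjusted p-values under 0.05 were found for 2 genes in each tissue by edgeR. Between the tissues, 8 of 13 were called in each genotype, 6 higher and 2 lower in WT ileum and 5 higher and 3 lower in KO ileum, beside 34.2% and 35.3% of all genes. Prkacb, a catalytic subunit of protein kinase A, had the largest of these differences, at 115 and 102 CPM in WT colon and 14.0 and 11.2 CPM in WT ileum, −3.10 in WT (SE 0.20) and −3.86 in KO (SE 0.22). Prkar2a, a regulatory subunit, was called higher in the ileum in both genotypes, by 0.83 in WT (SE 0.17) and 0.81 in KO (SE 0.17). Its WT call was lost without WT colon replicate 1. Adcy9, an adenylyl cyclase, was also called in both, by 0.78 in WT (SE 0.12) and 0.89 in KO (SE 0.12). Ptger4, a prostaglandin E2 receptor, was called higher in the ileum than in the colon by 0.75 in WT (SE 0.14) and 1.03 in KO (SE 0.14). Pde4a, 1 of the 3 lower in KO ileum (−1.22, SE 0.40), was not called by DESeq2 or with the mouse as block (−1.20, SE 0.41). Gnas, Adcy6 and Vipr1 had the highest levels of the list, with means from 218 to 408 CPM over the 4 groups.

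Apical scaffold proteins hold CFTR, the kinase and the exchanger NHE3 together at the membrane. In the colon, 0 of 7 of their genes were called between the genotypes by edgeR or DESeq2, beside 6.71% of all genes, and 2 had an unadjusted p under 0.05 by edgeR. In the ileum, 1 of 8 was called, beside 7.35% of all genes: Pdzk1, at 117 and 113 CPM in WT and 248 and 145 CPM in KO (0.73, SE 0.18), a call that was lost without either WT ileum library or without KO ileum replicate 1. Pdzk1 also differed between the tissues, since no colon library passed 0.166 CPM. Between the tissues, 5 of 8 were higher and 1 lower in WT ileum, and 4 were higher and 1 lower in KO ileum, beside 34.2% and 35.3% of all genes called either way. Slc9a3r1 (NHERF1) rose from 130 CPM in WT colon to 508 CPM in WT ileum (1.96, SE 0.31), with 2.00 in KO (SE 0.31), whereas Slc9a3r2 (NHERF2) was lower in the ileum by −2.05 in WT (SE 0.26) and −1.64 in KO (SE 0.28). Ezr, Myo6 and Myo5b were the most abundant of the list, with Ezr at 525 CPM in WT colon and 804 CPM in WT ileum.

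Genes of the chloride and fluid secretion machinery besides Cftr were called between the genotypes for 3 of 13 in the colon, 1 higher and 2 lower, beside 6.71% of all genes. Aqp8, an aquaporin, was higher (281 and 222 CPM in WT, 518 and 365 CPM in KO, 0.79, SE 0.09), a call that was lost without WT colon replicate 2. Kcnq1, a basolateral potassium channel that drives chloride exit, was lower (84.7 and 84.0 CPM in WT, 51.6 and 65.6 CPM in KO, −0.55, SE 0.12). Clca1, whose product is secreted by goblet cells and is not itself a channel, was lower (15002 and 15546 CPM in WT, 4118 and 6508 CPM in KO, −1.57, SE 0.18). The 7 goblet markers, of which Clca1 is 1, summed to 45960 and 51060 CPM in WT colon and to 27290 and 41040 CPM in KO colon, with Fcgbp and Clca1, 2 of 7, called lower. Of the other goblet markers, Muc2 and Zg16 were not lower in both KO libraries: Muc2 stood at 10680 and 13810 CPM in WT colon and at 8832 and 19240 CPM in KO colon, and Zg16 at 1657 and 1243 CPM and at 1805 and 1373 CPM. Spdef (96.2 and 128 CPM in WT, 78.4 and 89.3 CPM in KO), Agr2 (1143 and 1383, 951 and 1241) and Tff3 (424 and 371, 398 and 323) were lower in KO within each replicate number and were not called. The part of goblet cells was not tested. A single fit of all 8 libraries called 1 of 14 higher and 2 lower, beside 6.46% of all genes. Without KO colon replicate 1, that fit called 1 of 14 higher and 1 lower, beside 4.67% of all genes, and Kcnq1 was no longer called (−0.36, SE 0.14). In the ileum, 0 of 12 were called by edgeR or DESeq2, with 1 unadjusted p under 0.05 by each, beside 7.35% of all genes called. Kcnq1 was lower there too, at 141 and 150 CPM in WT and 100 and 115 CPM in KO. Its ileum difference of −0.44 (SE 0.14) fell short of the criterion's 0.5.

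Between the tissues, 11 of 14 genes of the secretion machinery were called in WT, 4 higher and 7 lower in the ileum, and 10 of 14 in KO, 3 higher and 7 lower, beside 34.2% and 35.3% of all genes. Car2, a carbonic anhydrase, stood at 739 and 671 CPM in WT colon and at 1.43 and 2.08 CPM in WT ileum (−8.67, SE 0.26, adjusted p = 5.84e-07 by edgeR's quasi-likelihood test). Aqp8 was at most 1.04 CPM and Best2, a goblet cell bicarbonate channel, at most 0.749 CPM in the ileum libraries, while Best2 lay between 15.8 and 39.2 CPM in the colon libraries. Kcnq1 was higher in the ileum by 0.79 in WT (SE 0.13) and 0.87 in KO (SE 0.14). Clca1 and Atp1b1 were among the most abundant of the list, and Atp1b1 was higher in WT ileum by 0.62 (SE 0.15), a call that was lost without any one WT library.

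Sodium chloride absorption runs opposite to CFTR, and 2 of its 4 genes were called higher in KO colon, beside 6.71% of all genes called either way. Slc9a3, which encodes NHE3, stood at 202 and 170 CPM in WT and 332 and 331 CPM in KO (0.83, SE 0.10). Slc26a3, the chloride bicarbonate exchanger whose loss causes congenital chloride diarrhoea, stood at 669 and 596 CPM in WT and 1310 and 815 CPM in KO (0.70, SE 0.15). Their adjusted p-values were 0.166 and 0.274 by edgeR's quasi-likelihood test. The Slc9a3 call held in a single fit of all 8 libraries and was lost without any one of the 4 colon libraries, with differences from 0.71 to 0.96. The Slc26a3 call held in the same fit and was lost without KO colon replicate 1 (0.36, SE 0.19) or WT colon replicate 2 (0.67, SE 0.31). The 5 surface colonocyte markers, led by Ceacam1, summed to 3167 and 3119 CPM in WT colon and to 3821 and 3744 CPM in KO colon. Of them, Car4, Slc26a3 and Aqp8 were called higher, so both lists share genes with the marker list. Ceacam1, the most abundant of them, was not higher in both KO libraries, at 1544 and 1657 CPM in WT and 1051 and 1703 CPM in KO. Krt20 stood at 429 and 406 CPM in WT and at 499 and 542 CPM in KO and was not called. The part of surface cells was not tested. In the ileum, 0 of 4 were called by edgeR or DESeq2 and 0 had an unadjusted p under 0.05, beside 7.35% of all genes called. Between the tissues, 2 of 4 were called in WT and 3 of 4 in KO, beside 34.2% and 35.3% of all genes. Slc26a6, the related exchanger of the small intestine, rose from 1.83 CPM in WT colon to 325 CPM in WT ileum (7.47, SE 0.19), and Slc26a3 was lower in the ileum by −2.19 in WT (SE 0.24) and −3.03 in KO (SE 0.25). Slc9a3 was called lower in KO ileum (−1.65, SE 0.36).

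**Figure D5:**
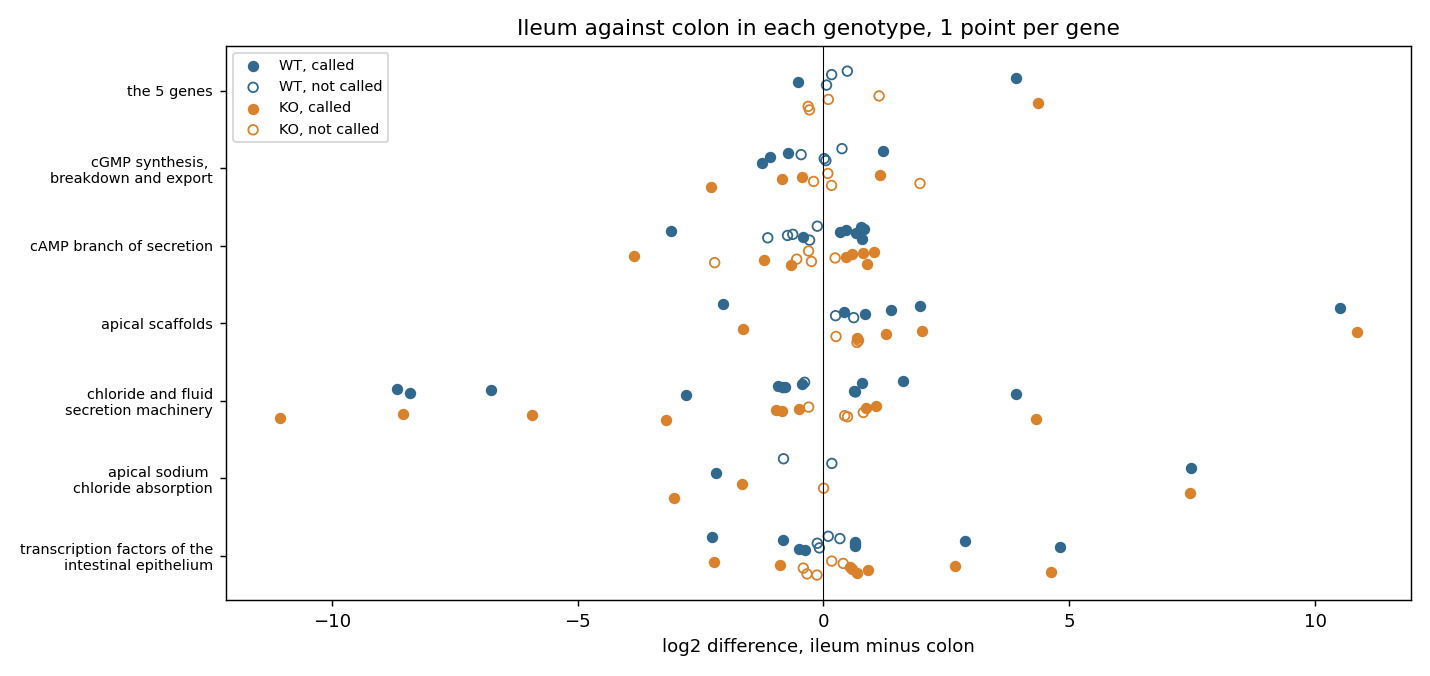
Log2 difference between ileum and colon for each tested gene of the 5 genes and the 6 lists, blue for WT and orange for KO, filled where the adjusted p was under 0.05. Guca2b is the point near 4 among the 5 genes, called in both genotypes, with Guca2a called in WT.

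Transcription factors of the intestinal epithelium passed the filter for 13 of 13. In the colon, 1 was called between the genotypes, beside 6.71% of all genes: Cdx2, at 211 and 207 CPM in WT and 120 and 174 CPM in KO (−0.54, SE 0.15). DESeq2 also called 1 gene of the list. The Cdx2 call was lost in a single fit of all 8 libraries (−0.51, SE 0.23), and in that fit without either WT colon library, without either WT ileum library and without KO colon replicate 1 (−0.27, SE 0.24). In the ileum, 0 were called by edgeR or DESeq2 and 0 had an unadjusted p under 0.05, beside 7.35% of all genes called. Between the tissues, 5 were higher and 4 lower in WT ileum, and 6 higher and 2 lower in KO ileum, beside 34.2% and 35.3% of all genes called either way. Cdx2, 1 of the 6 higher in KO ileum (0.68, SE 0.23), was not called with the mouse as block (0.67, SE 0.25). Its KO difference was 0.43 without KO colon replicate 1 and 0.31 without KO ileum replicate 1. Hnf4g was higher in the ileum by 2.88 in WT (SE 0.15) and 2.68 in KO (SE 0.14), and Gata4 by 4.81 (SE 0.62) and 4.63 (SE 0.63). Hnf4a, Klf4 and Klf5 had the highest levels, with Hnf4a at 599 CPM in WT colon and 933 CPM in WT ileum.

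List counts without KO ileum replicate 1 are not given, although the ileum difference of Pdzk1 fell to 0.33 without it. The genotype calls of the lists in the ileum also depended on KO ileum replicate 2, the library with many repeat-like counts. A single fit of all 8 libraries called 6.05% of all genes in the ileum, and the same fit without that library called 9.73%. Without it, the cAMP branch had 1 of 14 genes called higher and 1 lower, against 0 of 13 with it. The scaffolds had 3 of 8 higher, against 1 of 8. The secretion machinery had 1 of 14 higher and 1 lower, against 1 lower. The transcription factors had 1 of 13 higher and 2 lower, against none. The cGMP list had 0 of 9 called, against 1 of 8 lower, and the absorption list had 0 of 4 in both fits.

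Among 11972 other protein-coding genes with a mean of at least 1 CPM, genes like each member were ranked by Pearson's r of log2(CPM + 1) over the 8 libraries, as a description. For Guca2b they were Lpcat4 (0.999), Akr1a1 (0.998) and Dao (0.998), and Dao was at 0 in the colon libraries. After the mean of each tissue was taken away they were Akr1a1 (0.985), Rnaseh2c (0.983) and Slc25a39 (0.9749). Among those most like Guca2a were Ccdc9b (0.986) and Prom1 (0.971), and with tissue means taken away the nearest were Nts (0.991), Chn2 (0.985) and Pcsk1 (0.982). The latter values lean on KO colon replicate 1, where Nts, the neurotensin gene, stood at 0.276 CPM against 3.78, 5.41 and 4.56 CPM in the other colon libraries. Gucy2c was most like Elmo1 (0.973), 2610002M06Rik (0.944) and Ankib1 (0.942), and with tissue means taken away most like Pcnx (0.974), Elmo1 (0.967) and Atad1 (0.958). Prkg2 was most like Igf2bp2 (0.969), Hoxb6 (0.964) and Osr2 (0.963), and with tissue means taken away most like Hoxb4 (0.994), Cubn (0.991) and Hkdc1 (0.990), each of them low in KO colon replicate 1. Cftr was most like Pcnt (0.970), Mpdz (0.914) and Ick (0.913), and with tissue means taken away most like Pcnt (0.966), Son (0.961) and Kif5c (0.954). The points share 4 mice, and the first measure for Guca2b rests mainly on its tissue step.

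The remaining marker lists describe which cells the libraries held. The 4 tuft cell markers, led by Dclk1, were all called lower in KO in both tissues by edgeR, beside 3.67% of all genes called lower in the colon and 3.48% in the ileum, while DESeq2 called 2 of 4 for colon and 3 of 4 for ileum, with sums of 63.7 and 70.7 CPM in WT colon, 22.4 and 47.3 in KO colon, 311 and 467 in WT ileum, and 203 and 257 in KO ileum. The 5 leukocyte markers, led by Ptprc, summed to 28.7 and 23.3 CPM in WT colon and 6.73 and 12.99 CPM in KO colon, with Ptprc and Cd8a called lower, 2 of 4 tested, beside the same 3.67%. Stromal and smooth muscle markers, led by Vim, summed to at most 13.5 CPM in any library, with Acta2 and Myh11 at 0 in WT ileum replicate 2. Their sums were 13.3 and 13.5 CPM in WT colon and 13.4 and 8.71 CPM in KO colon. Pecam1, 1 of 4 tested, was called higher in KO colon by edgeR (0.88, SE 0.32), beside 3.04% of all genes, and no gene by DESeq2. Its level was low, at 2.10 and 0.968 CPM in WT colon and 3.04 and 2.42 CPM in KO colon. Vim, Col1a1, Col3a1 and Acta2 went both ways between the replicates there, and Myh11 was higher in KO at 0.276 CPM or less. The 4 Paneth markers, led by Defa24, summed to between 5203 and 8010 CPM in the ileum and to at most 9.82 CPM in the colon, where Mptx2, 1 of 3 tested, was called lower in KO (−1.97, SE 0.26). The 3 cycling markers, led by Mki67, summed to 536 and 569 CPM in WT colon, 365 and 554 in KO colon, 749 and 754 in WT ileum, and 524 and 729 in KO ileum, so replicate 1 of KO was low in both tissues. The 4 stem cell markers, led by Olfm4, summed to between 36.4 and 39.6 CPM in the colon and between 638 and 860 CPM in the ileum. The 5 enteroendocrine markers summed to 111 and 111 CPM in WT colon and to 87.0 and 134 CPM in KO colon, where edgeR called 1 of 5, Tac1, lower (−0.76, SE 0.24) and DESeq2 called none. Of the tissue markers, Fabp6 was called higher in KO colon by edgeR and not by DESeq2 (1.09, SE 0.26) and Car1 lower in KO ileum (−2.16, SE 0.45), both at low levels there. The part of these cells in the values of the 5 genes was not tested.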

How the data were processed

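RNA of intestinal epithelial cells was sequenced by the authors from ribosome-depleted, stranded libraries. Per the labels and the study's methods, the authors aligned reads to mm10 with STAR 2.6.1a and counted uniquely mapped reads over exons with featureCounts, and the deposited raw counts per gene were used here. The deposited gene length in bases gave levels per kilobase. The authors' own DESeq2 1.18.1 comparison and normalized columns were deposited too and were not used. Gene symbols turned into dates were restored, 25 in the colon table and 26 in the ileum table, and a gene listed in 1 table only (13358 genes) was counted as 0 in the other.

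The 5 genes and the lists were chosen with earlier results of these data known. Genes were kept by filterByExpr of edgeR 4.0.16 with a minimum count of 10, scaled with TMM and tested with the quasi-likelihood test in R 4.3.3, with Benjamini-Hochberg adjustment over all genes tested. The genotypes were compared within a tissue with the replicate number as a block, and the tissues over 8 libraries in 4 groups. Intervals are 95%. Simulated counts with planted changes served to test the fits. Total counts ranged from 11571061 to 22984283 and set the precision of low levels. Alternatives were DESeq2 1.42.0, RLE scaling, no filter on low counts, no replicate block, 1 fit of all libraries, a block for the mouse, unscaled totals, the 3 repeat-like genes taken out, and each library left out in turn. Named are the 5 genes and Ddx5, and of each list the 3 genes with the highest mean level and up to 3 called genes with the largest difference per comparison. Also named are the 3 genes most like each of the 5 by either measure, and the protein-coding genes next to Guca2a and Guca2b. A few genes that this rule picks are left out of the text. The Hox genes and the genes setting KO colon replicate 1 apart fall outside that rule and were chosen after their values were seen, as were the list counts without KO colon replicate 1 or KO ileum replicate 2. Gene positions are from GENCODE on GRCm38 and promoters from RefSeq on GRCm38.p6. Coding ends come from the GENCODE transcript sequences. Python 3.11.15, pandas 2.3.3, numpy 2.4.6, scipy 1.17.1 and matplotlib 3.10.9 were used.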

Additional observations from a re-analysis of the deposited data

How the results depend on the processing

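Guca2b was higher in the ileum in both genotypes under each of the 13 alternatives run, with log2 differences from 3.85 to 3.97 in WT and from 4.11 to 4.58 in KO. In fits that leave out 1 library, the lone sample of its group is assumed to vary like the other groups. Without the replicate block, 1040 colon genes and 786 ileum genes were called between the genotypes, and the correlation of the pairs' differences was 0.001 (colon) and 0.234 (ileum). DESeq2 called 530 colon genes and 353 ileum genes. With 1 library left out, 648 (without WT colon replicate 1) to 1794 (without KO colon replicate 2) were called in the colon, 815 to 1642 (without KO ileum replicate 2) in the ileum, and 3153 to 6231 between the tissues in WT, where each WT library moved the count by over 1.5 times. The interaction of tissue and genotype, called for 2 genes (Slc8a1 and Mptx2), was called for 210 with no filter, 16 by DESeq2, 1 with the mouse as block and 0 to 30 with 1 library left out.

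With 1 library left out, the genotype difference ranged from −0.45 to −0.027 in the colon and from −0.10 to 0.091 in the ileum for Guca2a, from 0.088 to 0.40 in the colon and from 0.45 to 0.92 in the ileum for Guca2b, from −0.18 to 0.11 in the ileum for Cftr, from −0.14 to 0.056 in the colon and from −0.15 to −0.047 in the ileum for Gucy2c, and from −3.35 to 0.20 in the colon and from −0.056 to 0.022 in the ileum for Prkg2 (−0.058 with no filter). The difference between ileum and colon ranged from −0.58 to −0.48 in WT and from −0.51 to −0.090 in KO for Guca2a, from −0.0041 to 0.20 in KO for Gucy2c (−0.0041 without KO colon replicate 1), and from 0.46 to 0.50 in WT and from 0.25 to 3.81 in KO for Prkg2. With no filter, the Prkg2 differences were 0.44 in WT (adjusted p = 0.0428) and 1.03 in KO (adjusted p = 7.13e-09), past the threshold, and edgeR's other alternatives over all 8 libraries did not pass it. For Cftr it ranged from −0.032 (without WT colon replicate 2) to 0.15 in WT and from −0.43 to −0.14 in KO. The cause of these changes was not tested.

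With unscaled totals, levels per kilobase were 1108 for Guca2a in WT colon and 597 in KO ileum, 9.09 and 119 for Guca2b in WT colon and WT ileum, 88.2, 85.9, 85.6 and 71.6 for Gucy2c in WT colon, KO colon, WT ileum and KO ileum, 8.56, 10.4 and 9.16 for Prkg2 in WT colon, WT ileum and KO ileum, and 31.9, 39.6 and 28.8 for Cftr in WT colon, KO colon and WT ileum. The median of all genes shifted by −0.14 between the genotypes in the ileum with unscaled totals. Of 62 calls of named list genes, DESeq2 lost 4, the mouse block 2 of 51 and the omission of 1 library between 3 and 13, and none turned direction. A single fit of all 8 libraries lost 2 of 11 genotype calls, those of Pde10a in the ileum and Cdx2 in the colon. Groups of 2 mice and 74 to 207 reads for the lowest values limit what the depth can show.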
